A study of Mus musculus with 42 samples.

Results

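The TGF-beta pathway carries a signal from a secreted ligand to the nucleus. The ligand TGF-beta1 binds the type II receptor kinase, which activates the type I receptor kinase, and the active pair phosphorylates the receptor-regulated SMAD proteins SMAD2 and SMAD3. These join SMAD4 and act on target genes, while SMAD7 works back on the receptors as an inhibitor and SKI, SKIL (also called SnoN) and TGIF1 repress SMAD target genes in the nucleus. In natural killer (NK) cells and related innate lymphoid cells the pathway is known for restraining cytotoxicity and for favoring a tissue-resident state.

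Expression of 10 listed genes of this pathway was examined: the ligand Tgfb1, the receptors Tgfbr1 and Tgfbr2, the signaling SMADs Smad2, Smad3 and Smad4, the inhibitory Smad7, and the corepressors Ski, Skil and Tgif1. They were listed by name for their place in the pathway, with earlier results of these data known, and all 10 were found among the 54353 genes held by every bulk count table. The material was uterine tissue-resident NK (trNK) cells of adult wild-type C57BL/6 mice, sorted as live, lineage-negative CD45+NK1.1+NKp46+CD49a+CXCR6- lymphocytes, in 34 bulk RNA-seq libraries with 2 per group, and in a pool of single cells sorted as live CD45+NK1.1+NKp46+ from virgin and gd8.5 uteri. The first experiment compared trNK cells of virgin mice with those at gestational days 6.5 and 8.5 (gd6.5, gd8.5). The second compared, at gd8.5, 3 subsets by surface CD55 and 4-1BB: trNK-V (low), trNK-D (intermediate) and trNK-T (high). The third was a culture of 3 days (72 h), taken as live NK1.1+ cells, without IL-21, with 20 ng/mL IL-21, or with 20 ng/mL IL-21 and 1 μM Stattic, a small-molecule STAT3 inhibitor; the dose is that of the labels, while the study's methods print its unit as mM. By the study's methods the medium of its 3-day culture also held 10 ng/mL IL-15. The fourth was a time course of 0, 6, 24 and 72 h in 10 ng/mL IL-15 alone or with 20 ng/mL IL-21, where the treatment protocol in the labels gives a higher IL-15 dose than the sample labels printed here. By the study's text both cultures were started with trNK-V cells of gd6.5 mice, while its methods name trNK cells of virgin or gd6.5 mice. The 0 h libraries also carry a label with IL-21, so that this pair serves as a background comparison. Nothing in the labels says that replicates came from separate animals or cultures, so p-values measure only the spread between these libraries.

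Levels are given as RPKM, counted reads scaled by exon length and library size, which can be compared between genes. The libraries held from 11862089 to 66468883 counted reads. Defining markers of trNK cells were present in all 34 libraries, with Ncr1 from 46.8 to 1030 RPKM, Eomes from 7.19 to 67.8 and Itga1 from 1.64 to 30.6. Of the B cell markers reported here Ms4a1 was at 0 in all of them, Cd79a reached 14.7 and Cd79b 5.03 RPKM, and Ighm lay from 46.3 to 465. The summed RPKM of 7 macrophage markers ranged from 0.00754 to 71.9, with Cd68 up to 71.8 and C1qa at 4.02 or less. The summed RPKM of 5 stromal markers was 42.1 in trNK-V replicate 1 and 3.3 or less elsewhere, and that of 5 erythroid markers reached 780 in gd8.5 replicate 2. The 72 h libraries of the time course agreed least between replicates: of the genes above 10 RPKM in both, 13.4% without IL-21 and 17.7% with IL-21 were over 2-fold apart, against 1.01% at gd6.5. In virgin replicate 1 the reads of Smad2 were counted over another gene model of 8781 rather than 3549 exon bases, so the Smad2 level of that library is not comparable with the others. The other 9 genes had the same exons in virgin replicate 1 as in gd6.5 replicate 1, and exons of the other libraries were not compared. No exon of the 10 genes overlapped one of another gene.

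The results turn mostly on Tgif1, Tgfbr1, Smad3 and Skil. All 4 were called in a comparison with Stattic or between subsets. Upstream sequences are shown for the first 3, as no promoter was matched for Skil. The 250 bases before the RefSeq start site were searched for the STAT-type motif TTCNNNGAA and for the SMAD-type motif CAGAC, each on both strands. The first reads alike on both, and the second reads GTCTG on the other strand. Capitals mark matches, and each sequence runs 5′ to 3′ on the strand of the gene in GRCm38.p6.
Tgif1, chr17:70853533-70853782, minus strand, the start site farthest upstream: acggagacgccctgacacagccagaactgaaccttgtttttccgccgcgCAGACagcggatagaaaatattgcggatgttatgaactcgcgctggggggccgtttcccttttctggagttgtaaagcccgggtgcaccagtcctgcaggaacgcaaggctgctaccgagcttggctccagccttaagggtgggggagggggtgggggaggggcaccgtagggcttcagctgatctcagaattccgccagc
Tgif1, chr17:70846942-70846970, minus strand, 29 bases around the match that begins at position -183 from the start site farthest downstream: ttaatagcatTTCTTAGAAgtgttctaaa
Tgfbr1, chr4:47352972-47353221, plus strand, the start site farthest upstream, with no match: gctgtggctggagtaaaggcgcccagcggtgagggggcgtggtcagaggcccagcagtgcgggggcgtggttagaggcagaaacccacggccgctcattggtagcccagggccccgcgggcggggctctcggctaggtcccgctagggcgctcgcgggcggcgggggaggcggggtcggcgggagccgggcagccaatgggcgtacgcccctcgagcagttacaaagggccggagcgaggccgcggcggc
Smad3, chr9:63757995-63758244, minus strand, with no match: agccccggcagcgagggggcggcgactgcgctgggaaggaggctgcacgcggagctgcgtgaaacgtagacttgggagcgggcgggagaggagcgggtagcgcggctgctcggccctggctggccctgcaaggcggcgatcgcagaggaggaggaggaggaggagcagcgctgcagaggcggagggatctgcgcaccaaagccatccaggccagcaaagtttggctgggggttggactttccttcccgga
RefSeq promoters were matched for Tgfb1, Tgfbr1, Tgfbr2, Smad3, Ski and Tgif1, 11 start sites in all. TTCNNNGAA stood upstream of 1 of the 11, the fifth start site of Tgif1, while 7.02% of all 32851 promoters held it. CAGAC stood upstream of 5 of the 11, in Tgif1, Tgfbr2 and the downstream start site of Tgfbr1, which is not shown, against 42.2% of all promoters. These are descriptions of letters in short windows.

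Comparisons were made with edgeR's quasi-likelihood test, and a call needed a Benjamini-Hochberg adjusted p under 0.05 together with a change of more than 2-fold. The main gene set, after the study's own filter, held genes above 10 RPKM in both libraries of any group. A gene could thus enter through a single group in which it was high. A call in this set then rests on values that also selected the gene. Most pathway genes are expressed below 10 RPKM. Only Smad2, Skil and Tgif1 passed in the gestation and subset experiments, Tgfbr1 with them in the 72 h culture, and none of the 10 in the time course. Values of the others come from the same test on edgeR's filterByExpr gene set, in which all 10 were tested in every experiment.

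Between stages of gestation none of the 10 genes passed the test. Smad2, a receptor-regulated SMAD, lay from 16.13 to 24.0 RPKM in the gestation libraries, with the corepressors Tgif1 from 7.334 to 19.85 and Skil from 7.23 to 15.44. The type II receptor Tgfbr2, which binds the ligand, lay between 8.133 and 10.68 RPKM. Smad3, the other receptor-regulated SMAD, was much lower, between 1.37 and 3.533 RPKM, and so were Smad7, from 1.155 to 2.99, and Ski, from 1.593 to 3.214. The ligand Tgfb1 itself was present in the trNK cells at 2.606 to 4.091 RPKM.

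**Figure D1:**
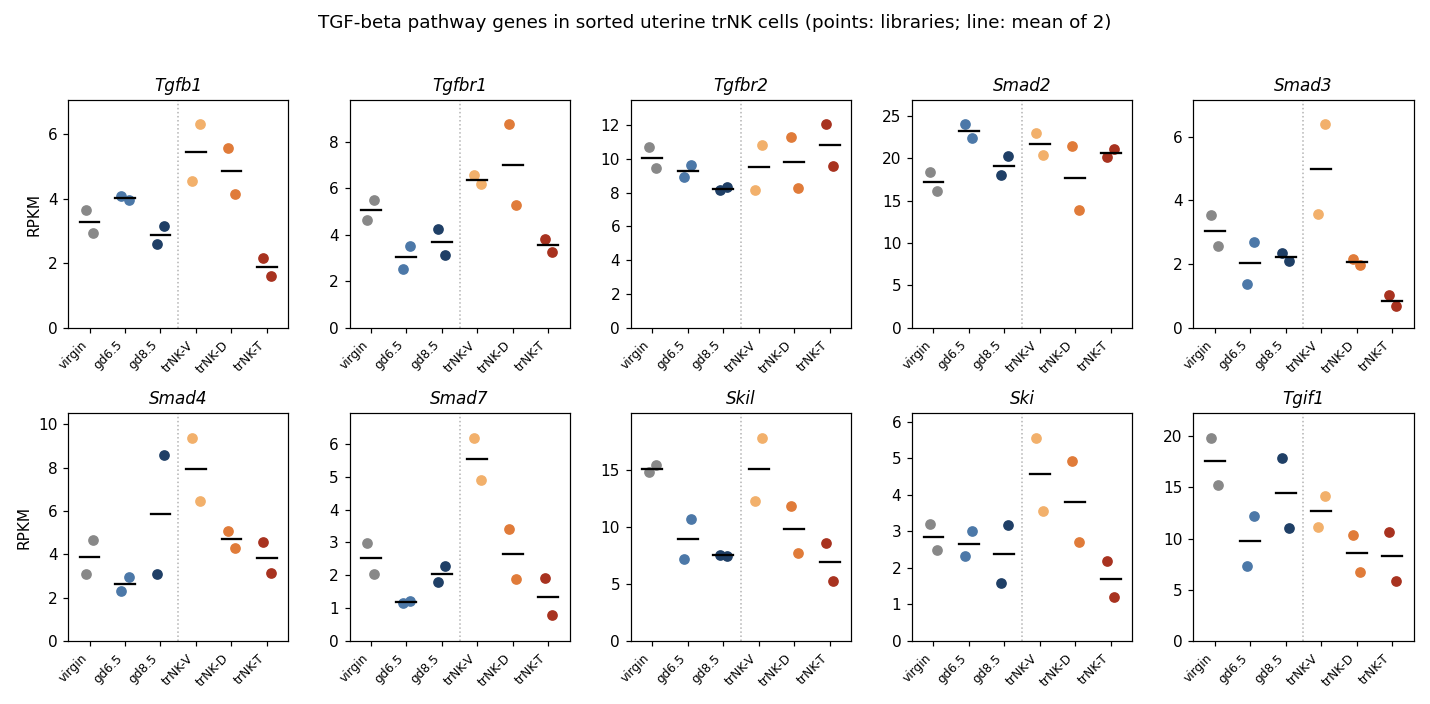
RPKM of the 10 TGF-beta pathway genes in sorted uterine trNK cells, a panel per gene with its own linear axis; points are libraries, lines the mean of 2, and the dotted line separates the gestation libraries from the gd8.5 subsets, which are another experiment. Smad3 falls from 3.578 and 6.387 RPKM in trNK-V to 1.018 and 0.6846 in trNK-T, while Smad2 and Tgfbr2 overlap between those subsets.

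Skil came closest to a call. It was at 14.81 and 15.44 RPKM in virgin trNK cells, at 7.23 and 10.68 at gd6.5 and at 7.544 and 7.494 at gd8.5. Both virgin libraries were above all 4 libraries of pregnant mice. Skil passed the RPKM filter of this experiment only through the virgin libraries, where it was high. The log2 fold change was -0.84 ± 0.22 (SE, n = 2 per group) at gd6.5 and -1.07 ± 0.22 at gd8.5, with adjusted p of 0.0588 and 0.138 (edgeR quasi-likelihood test), so neither was called. Both comparisons share the virgin libraries. Tgif1, at 19.85 and 15.25 RPKM in virgin cells, was at 7.334 and 12.18 at gd6.5 and at 17.89 and 11.07 at gd8.5. Its gd6.5 libraries lay below both virgin ones (-0.94 ± 0.34, adjusted p 0.118, edgeR), and its gd8.5 libraries overlapped them. None of the 3 members tested was called at either stage, and percent called among all 4504 genes tested was 6.17 at gd6.5 and 0.422 at gd8.5 against virgin. Between gd8.5 and gd6.5 edgeR called 0 genes, with 1071 at an unadjusted p under 0.05.

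With filterByExpr 0 of the 10 members were called between stages, against 0.0356% of all 14040 genes for both comparisons with virgin cells. Smad7, itself a target of the pathway in many cells, was at 2.99 and 2.043 RPKM in virgin cells, at 1.155 and 1.221 at gd6.5 and at 1.802 and 2.276 at gd8.5. Its groups did not overlap between virgin and gd6.5, but the log2 fold change of -1.11 ± 0.44 had an adjusted p of 0.268 (edgeR). The type I receptor Tgfbr1 was lower at gd6.5 (2.546 and 3.536 RPKM) than in virgin cells (4.618 and 5.487), with an adjusted p of 0.269 (edgeR). For Smad2 in the RPKM-filtered set the log2 fold change at gd6.5 was 0.34 ± 0.19, and 0.44 without virgin replicate 1, the library with the other gene model. In the filterByExpr set these were 0.395 ± 0.20 and 0.415. Among the 88 genes in the lists of other pathway and response genes described with the subsets, 0 of 16 with the RPKM filter and 0 of 60 in the filterByExpr set were called at gd6.5 or gd8.5 against virgin cells.

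In the gd8.5 subsets Smad3 and Skil were called lower in trNK-T than in trNK-V, each in only one of the gene sets: Smad3 with filterByExpr, where Skil was not called, and Skil in the RPKM-filtered set, where Smad3 was not tested. In the filterByExpr fit 8 of the 10 members had a log2 fold change below 0. In the RPKM-filtered set 1 of 3 tested members was called, against 21.2% of all 4683 genes, so that the share among so few members cannot be set apart from the background. With filterByExpr 1 of 10 was called, against 6.75% of 14335 genes, and the members' log2 fold changes had a median of -0.90, with -0.05 for the whole gene set.

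Smad3 was at 3.578 and 6.387 RPKM in trNK-V, at 2.17 and 1.98 in trNK-D and at 1.018 and 0.6846 in trNK-T. The 3 subsets did not overlap and stood in the order V, D, T. Between trNK-T and trNK-V the log2 fold change was -2.36 ± 0.48, a 5.15-fold lower level, with an adjusted p of 0.0360 (edgeR, n = 2 per group). Against trNK-V, trNK-D had a log2 fold change of -1.15 ± 0.46 and an adjusted p of 0.386 (edgeR), and trNK-T against trNK-D one of -1.21 ± 0.46 with 0.393. The call for trNK-T against trNK-V held only without trNK-V replicate 1 (adjusted p 0.0424) and was lost without trNK-V replicate 2 (0.113), trNK-T replicate 1 (0.116) or trNK-T replicate 2 (0.234), all from edgeR, with log2 fold changes from -2.72 to -1.87. None of the members was called between trNK-D and trNK-V, where percent called was 0.32 with the RPKM filter and 0.00698 with filterByExpr, or between trNK-T and trNK-D, where it was 1.75 and 0.0767. These comparisons share libraries with that of trNK-T and trNK-V.

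The other receptor-regulated SMAD did not pass the test. Smad2 was at 23.04 and 20.41 RPKM in trNK-V, at 21.47 and 13.87 in trNK-D and at 20.12 and 21.12 in trNK-T, and the libraries of trNK-T lay within the range of trNK-V or just under it. The log2 fold change was 0.11 ± 0.24 in the filterByExpr fit and -0.07 ± 0.25 in the RPKM-filtered one.

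Skil, a repressor of SMAD target genes, was at 12.27 and 17.85 RPKM in trNK-V, at 11.82 and 7.763 in trNK-D and at 8.584 and 5.236 in trNK-T. Both trNK-T libraries were below both of trNK-V, and those of trNK-D overlapped with trNK-T. The log2 fold change of -1.12 ± 0.33 (2.18-fold lower) had an adjusted p of 0.0401 (edgeR). Skil had passed the RPKM filter only through trNK-V, where it was high, so this call follows a selection on the same values. With filterByExpr the change was -0.94 ± 0.32 with an adjusted p of 0.120, and in the RPKM-filtered set the call was lost without trNK-V replicate 1 (0.0547), trNK-V replicate 2 (0.179) or trNK-T replicate 2 (0.191), all from edgeR.

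The ligand, the inhibitory SMAD and the second corepressor lay on the same side without passing the test. Tgfb1 was at 4.563 and 6.3 RPKM in trNK-V, at 5.582 and 4.152 in trNK-D and at 2.159 and 1.605 in trNK-T, and trNK-T was below all 4 other libraries (log2 fold change against trNK-V -1.34 ± 0.37, adjusted p 0.0733, edgeR). Smad7 was at 6.192 and 4.899 RPKM in trNK-V, at 3.416 and 1.899 in trNK-D and at 1.908 and 0.7832 in trNK-T. Its groups did not overlap between trNK-T and trNK-V (-1.86 ± 0.56, adjusted p 0.0903, edgeR). Ski, at 5.569 and 3.572 RPKM in trNK-V, was at 4.93 and 2.704 in trNK-D and at 2.183 and 1.213 in trNK-T (-1.24 ± 0.48, adjusted p 0.156, edgeR). Smad4, the shared partner of SMAD2 and SMAD3, was at 9.393 and 6.485, at 5.094 and 4.298 and at 4.577 and 3.134 RPKM in the same order of subsets (adjusted p 0.193, edgeR).

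Neither receptor passed the test. Tgfbr2 was at 8.185 and 10.85 RPKM in trNK-V, at 11.31 and 8.267 in trNK-D and at 12.04 and 9.567 in trNK-T, and the subsets overlap. Tgfbr1 was at 6.566 and 6.18 RPKM in trNK-V, at 8.74 and 5.273 in trNK-D and at 3.829 and 3.264 in trNK-T, with a log2 fold change of -0.66 ± 0.30 against trNK-V (adjusted p 0.209, edgeR). In the same libraries the summed RPKM of the 4 trNK markers went from 1380 and 1390 in trNK-V to 799 and 644 in trNK-T, and that of the 7 T cell markers from 196 and 193 to 35.5 and 38.3, with 3 and 2 of the 7 at 0 in trNK-V and 3 and 3 in trNK-T. The 7 macrophage markers summed to 29.7 and 25.1 in trNK-V and to 16.6 and 10.3 in trNK-T, with 2 and 0 of them at 0 against 1 and 4, and the stromal sum was 42.1 and 3.06 against 0.513 and 0.344. Other sums rose. The sum of 5 endothelial markers went from 21 and 19.6 to 51.2 and 50.8, with 4 and 3 of them at 0 against 0 and 3. Most of it was Pecam1, as Cdh5, Kdr, Emcn and Egfl7 reached at most 0.553, 0.86, 1.08 and 4 RPKM in any library. The sum of 5 epithelial markers went from 25.7 and 11 to 64.7 and 64.8, with 2 and 2 of them at 0 against 3 and 3. Most of it was Epcam and Cdh1, as Krt8, Krt18 and Krt19 reached at most 0.144, 2.28 and 0.804 RPKM. The sum of 8 markers of conventional NK (cNK) cells fell from 2820 and 3770 to 1090 and 985, with 2060 and 1870 in trNK-D. This sum shares Ncr1, Klrb1c and Eomes with the trNK sum. Among its other markers, Itga2 and S1pr5 peaked in trNK-V replicate 2, at 5.09 and 4.87 RPKM. Klra4, Klra8 and Zeb2 peaked in cultured libraries. In the single cells Smad3 was higher in cNK-like than in trNK-like cells. The part of these marker genes in the differences, that of Smad3 included, was not tested.

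**Figure D2:**
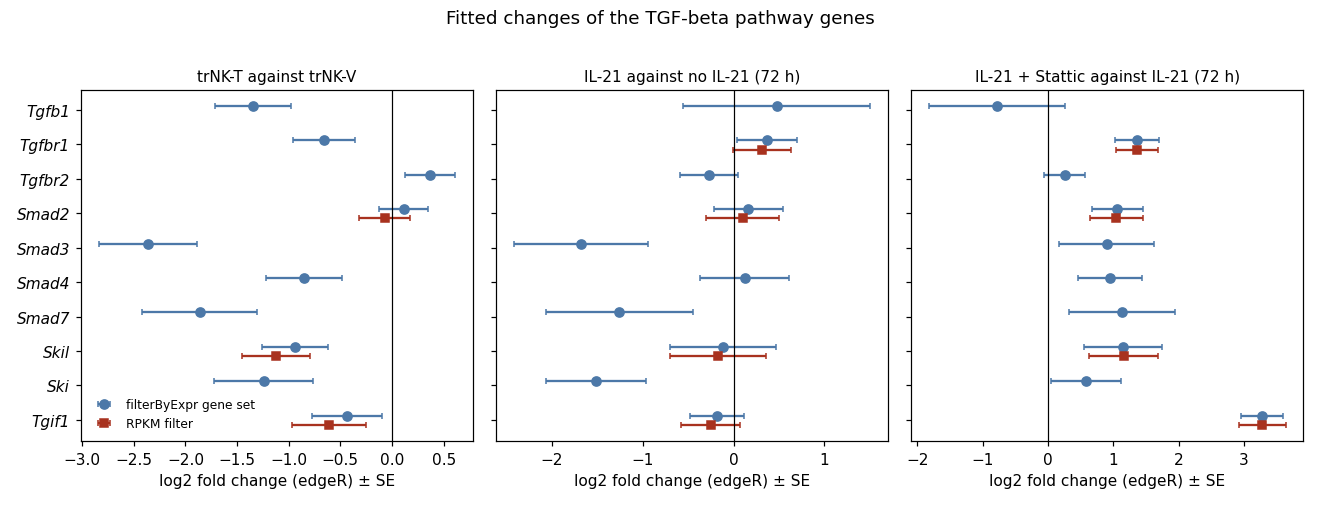
Log2 fold changes (edgeR) of the 10 genes in 3 comparisons, with bars of 1 SE; blue points are from the filterByExpr gene set, in which all 10 were tested, and red squares from the RPKM-filtered set. Smad3 lies at -2.36 for trNK-T against trNK-V and Tgif1 at 3.28 for IL-21 with Stattic against IL-21.

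Among 22 genes that TGF-beta is known to induce in lymphocytes or widely, 9 passed the RPKM filter in the subsets. Of these, 3 fell from trNK-V to trNK-T and 0 rose, against 21.2% of all genes called in either direction, and the list's log2 fold changes had a median of -0.80, with -0.01 for all tested genes. Junb, an AP-1 subunit, went from 694 and 974 RPKM in trNK-V to 153 and 42.8 in trNK-T (-3.09 ± 0.61, adjusted p 0.0126, edgeR). Klf10, an early TGF-beta-induced zinc finger factor, went from 17.4 and 27.5 to 7.43 and 3.27 RPKM (-2.06 ± 0.51), and Tnfsf10, which encodes TRAIL, from 17.6 and 14.2 to 6.72 and 2.27 (-1.82 ± 0.51). Klf10 and Tnfsf10 lay under 10 RPKM in trNK-T, so they entered this set through groups in which they were higher. Neither was among the calls with filterByExpr. With filterByExpr 2 of 19 tested fell, against 6.75% of all genes called, Junb and the transcription factor Runx1, which went from 7.59 and 7.27 to 3.05 and 1.85 RPKM (-1.42 ± 0.28, adjusted p 0.0333, edgeR).

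Of the 6 lists of other pathway genes, few members were called, and the counts are to be read against the 21.2% of all genes called with the RPKM filter and the 6.75% with filterByExpr. In the TAK1 branch, the SMAD-independent arm, 1 of 2 tested genes fell, the adaptor Tab2, from 18.7 and 24 RPKM in trNK-V to 11.6 and 8.31 in trNK-T (-1.10 ± 0.31, adjusted p 0.0353, edgeR), while with filterByExpr 0 of 5 genes of that branch were called. Of 5 tested genes for turnover of SMADs and receptors none was called with the RPKM filter, and in the filterByExpr set 1 of 16 rose, Fkbp1a, which binds the type I receptor (59.6 and 49.2 to 104 and 105 RPKM, 1.13 ± 0.16). Of 7 tested receptors and co-receptors in that set, 1 rose: Acvrl1, the type I receptor known as ALK1, had 0 counts in both trNK-V libraries and 3.27 and 6.4 RPKM in trNK-T, at least 101-fold higher when 3 counts are taken for each trNK-V library. The endothelial marker sum, mostly Pecam1, rose between the same libraries. In trNK-T 0 of its 5 markers were at 0 in replicate 1 and 3 in replicate 2. The part of these markers in the rise of Acvrl1 was not tested. The lists of ligands, of latency and activation and of SMADs and nuclear partners had 0 calls of 0, 1 and 2 tested genes with the RPKM filter and 0 of 3, 7 and 9 in the filterByExpr set.

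In the 72 h culture Tgif1 and Tgfbr1 were higher with IL-21 and the STAT3 inhibitor than in the other arms. Tgif1, a homeodomain corepressor that recruits histone deacetylases to SMAD2, was called in both comparisons. Tgfbr1 was called only against the culture without IL-21, a comparison in which IL-21 and Stattic both differ. No arm held Stattic without IL-21. These calls are of the RPKM-filtered set. With the replicate number added to the model, Tgif1 against IL-21 and Tgfbr1 against no IL-21 were not called (adjusted p 0.0534 and 0.0879, edgeR). With IL-21 alone none of the 10 members passed the test.

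Tgif1 was at 6.331 and 8.81 RPKM without IL-21, at 5.105 and 6.131 with IL-21 and at 56.63 and 45.04 with IL-21 and Stattic. Both Stattic libraries lay above the other 4 of the experiment. Tgif1 passed the RPKM filter only through the Stattic libraries, as did Skil. The calls of Tgif1 in that set, and the counts of called members, therefore follow a selection on the same values. The log2 fold change was 3.28 ± 0.36 (9.73-fold) against IL-21, with an adjusted p of 0.00701 (edgeR, n = 2 per group), and 3.03 ± 0.35 (8.18-fold) against no IL-21, with 0.00628. These comparisons share the Stattic libraries. With IL-21 in both arms, 1 of the 4 tested members was called, against 2.96% of all 4158 genes. Against no IL-21, 2 of 4 were called, against 4.74% of genes. In the filterByExpr set the fold changes were 3.28 ± 0.32 and 3.09 ± 0.32, with adjusted p of 0.0651 and 0.0361 (edgeR); 0 and 1 of the 10 members were called there, against 0.00733% and 0.154% of 13647 genes. Without the first Stattic library the adjusted p against IL-21 was 0.0572, and without the first library of the culture without IL-21 that against no IL-21 was 0.0519 (edgeR).

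**Figure D3:**
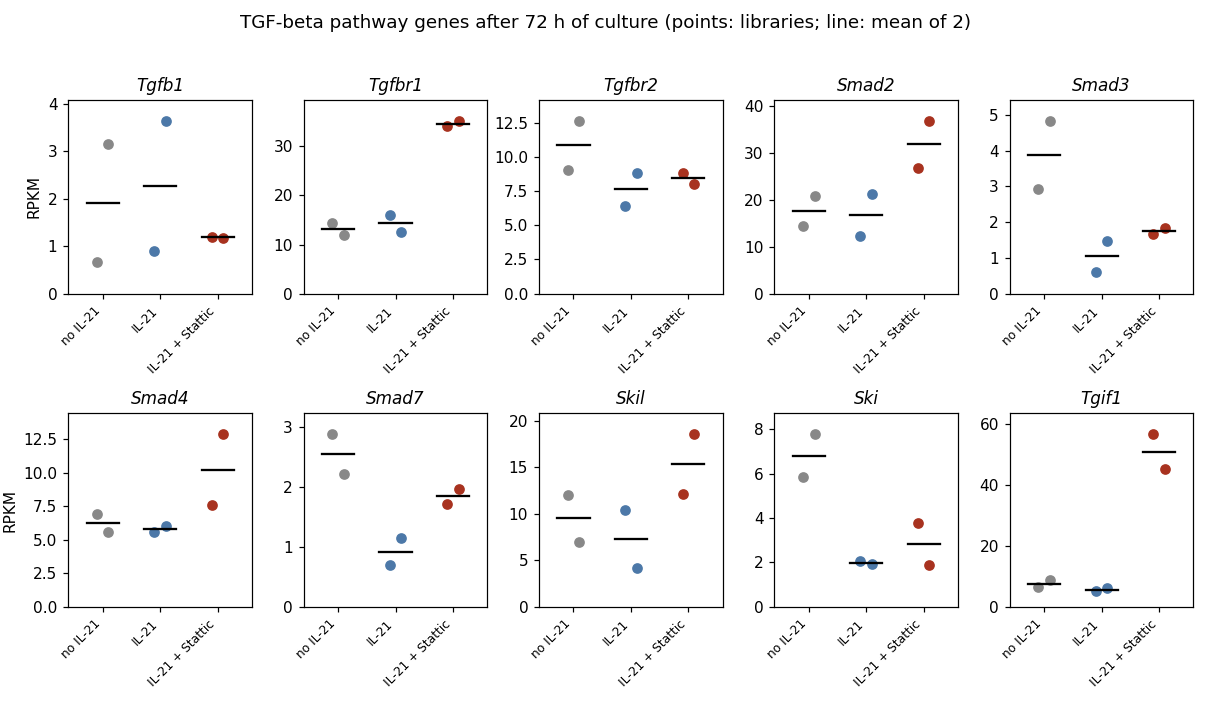
RPKM of the 10 genes after 72 h of culture without IL-21, with IL-21 or with IL-21 and the STAT3 inhibitor Stattic, a panel per gene with its own linear axis; points are libraries and lines the mean of 2. Tgif1 stands at 56.63 and 45.04 RPKM and Tgfbr1 at 34.05 and 35.19 with Stattic, above the other 4 libraries.

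Tgfbr1, the type I receptor kinase, was at 14.48 and 11.93 RPKM without IL-21, at 16.07 and 12.63 with IL-21 and at 34.05 and 35.19 with Stattic. Both Stattic libraries lay above the other 4. The log2 fold change was 1.68 ± 0.32 (3.20-fold) against no IL-21, with an adjusted p of 0.0305, and 1.37 ± 0.32 (2.58-fold) against IL-21, with 0.0746 (edgeR). The call against no IL-21 was lost in each of the 4 fits that left out a library, with adjusted p of 0.0858 to 0.153 (edgeR) and log2 fold changes of 1.56 to 1.81.

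Smad2 and Skil were also higher with Stattic without being called. Smad2 was at 14.43 and 20.77 RPKM without IL-21, at 12.27 and 21.27 with IL-21 and at 26.87 and 36.85 with Stattic (1.04 ± 0.41 against IL-21, adjusted p 0.217, edgeR). Skil was at 12.05 and 6.969, at 10.42 and 4.139 and at 12.1 and 18.61 RPKM in the same order (1.16 ± 0.53, adjusted p 0.285, edgeR). Tgfbr2, at 9.078 and 12.66, at 6.403 and 8.85 and at 8.858 and 8.032 RPKM, overlapped between the IL-21 and Stattic arms, and both libraries without IL-21 lay above them. In the filterByExpr fit 9 of the 10 members had a log2 fold change above 0 with Stattic against IL-21, and the median was 1.00, with -0.09 for the whole set. The exception was Tgfb1, which was at 0.6681 and 3.167 RPKM without IL-21, at 0.8949 and 3.648 with IL-21 and at 1.202 and 1.17 with Stattic. The replicates of the first 2 arms differed so widely that its change, -0.78 ± 1.04, has an SE larger than itself.

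In the single cells Tgif1, Tgfbr1 and Skil had their highest levels among named classes in macrophage-like cells. In the cultures the summed RPKM of 7 macrophage markers was 20.7 and 18.9 without IL-21, 28.6 and 22.1 with IL-21 and 20.6 and 19.9 with Stattic, and 6 and 5 of the 7 were at 0 in the Stattic libraries. The summed RPKM of the 4 trNK markers fell from 1100 and 966 without IL-21 to 313 and 367 with IL-21 and 228 and 234 with Stattic. The part of either marker list in the rise of Tgif1 was not tested.

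With IL-21 alone the members nearest to a change were Ski and Smad3. Ski was at 5.835 and 7.785 RPKM without IL-21 and at 2.065 and 1.907 with it, groups that did not overlap, with a log2 fold change of -1.52 ± 0.55 and an adjusted p of 0.921 (edgeR). Smad3 was at 2.933 and 4.832 without IL-21, at 0.5921 and 1.485 with IL-21 and at 1.68 and 1.827 with Stattic (IL-21 against none -1.68 ± 0.74, adjusted p 0.975, edgeR). Smad7 was at 2.886 and 2.221, at 0.6896 and 1.148 and at 1.722 and 1.974 RPKM. None of the 10 members was called in the filterByExpr set, where 0 of all 13647 genes were (710 at an unadjusted p under 0.05), and 0 of 4 in the RPKM-filtered set, against 0.289% of 4158 genes.

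Of the genes induced by TGF-beta, 11 were tested in the culture. With Stattic against IL-21, Cdkn1a, which encodes the cell cycle inhibitor p21, rose from 86.4 and 75.8 to 223 and 227 RPKM (1.57 ± 0.31, adjusted p 0.0441, edgeR), and Tnfsf10 fell from 15.6 and 8.87 to 0.778 and 2 (-3.05 ± 0.59, adjusted p 0.0435). Against no IL-21, Cdkn1a rose from 38.6 and 27.4 RPKM, 8.33-fold, and Cdkn2b, which encodes the cell cycle inhibitor p15, from 0.615 and 1.5 to 31.1 and 18.4, 28.3-fold (4.82 ± 0.73, adjusted p 0.0133, edgeR), while Tnfsf10 fell from 14.3 and 13.8. So 1 rose and 1 fell in the first comparison, where 2.96% of all genes were called, and 2 rose and 1 fell in the second, where 4.74% were. In the filterByExpr set 0 of 18 were called in the first, against 0.00733% of all genes, and 1, Cdkn1a, in the second, against 0.154%. Cdkn2b without IL-21 and Tnfsf10 with Stattic lay under 10 RPKM, so both entered the RPKM-filtered set through groups in which they were higher. No gene of the 6 other lists was called in either comparison or gene set, with 0 to 5 genes tested per list with the RPKM filter.

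In the time course no member passed the RPKM filter. By the labels the libraries were made with another kit than those of the other experiments, so levels are not compared between them. Tgfb1 did not exceed 0.4019 RPKM in any of the 16 libraries and Smad7 did not exceed 1.108. Smad2 lay from 2.379 to 11.98 RPKM, Tgfbr1 from 2.315 to 15.74 and Skil from 2.95 to 7.967. In the filterByExpr set 0 of the 10 members were called for IL-21 at 0, 6, 24 or 72 h, while percent called among all 14879 genes was 0, 0.0672, 0.00672 and 5.07. With edgeR 268 of all genes were at an unadjusted p under 0.05 for the 0 h pair.

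The libraries at 72 h went apart. Smad4 was at 17.24 RPKM in one library without IL-21 and at 0.1811 in the other, and at 2.467 and 1.86 with IL-21. Tgif1 was at 3.142 and 0 RPKM without IL-21 and at 6.614 and 0.76 with IL-21. Smad3 was at 3.208 and 0 without IL-21 and at 1.707 and 0.4173 with IL-21. When the first 72 h library without IL-21 was left out, 3 members were called for IL-21 at 72 h (Smad3, Smad4 and Tgif1), and without the second 2 were (Smad4 and Ski), with the library left assumed to vary like the other groups, while 16.3% and 8.15% of all genes were called in the same fits. The log2 fold change of Smad4 was 3.388 in the first case and -3.003 in the second, so its direction rested on a single library.

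For IL-21 at 72 h, Ski came closest to a call. It was at 1.298 and 1.732 RPKM at 24 h without IL-21 and at 0.2769 and 0.367 at 72 h, and at 1.828 and 1.348 at 72 h with IL-21. Both libraries with IL-21 lay above both without, with a log2 fold change of 2.16 ± 0.59 and an adjusted p of 0.0583 (edgeR). At 6 h the same contrast was -0.95 and at 24 h -1.05, and the difference between the IL-21 effects at 72 h and 6 h was 3.11 on the log2 scale with an adjusted p of 0.0788 (edgeR), and 0 members were called for it, against 2.47% of genes. That difference was called without the first (0.0366) or the second (0.0287) 72 h library without IL-21 (edgeR), fits in which 12.3% and 5.93% of all genes were called and the library left in that arm was assumed to vary like the other groups. In the inhibitor culture of the same length Ski was lower with IL-21 in both libraries.

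**Figure D4:**
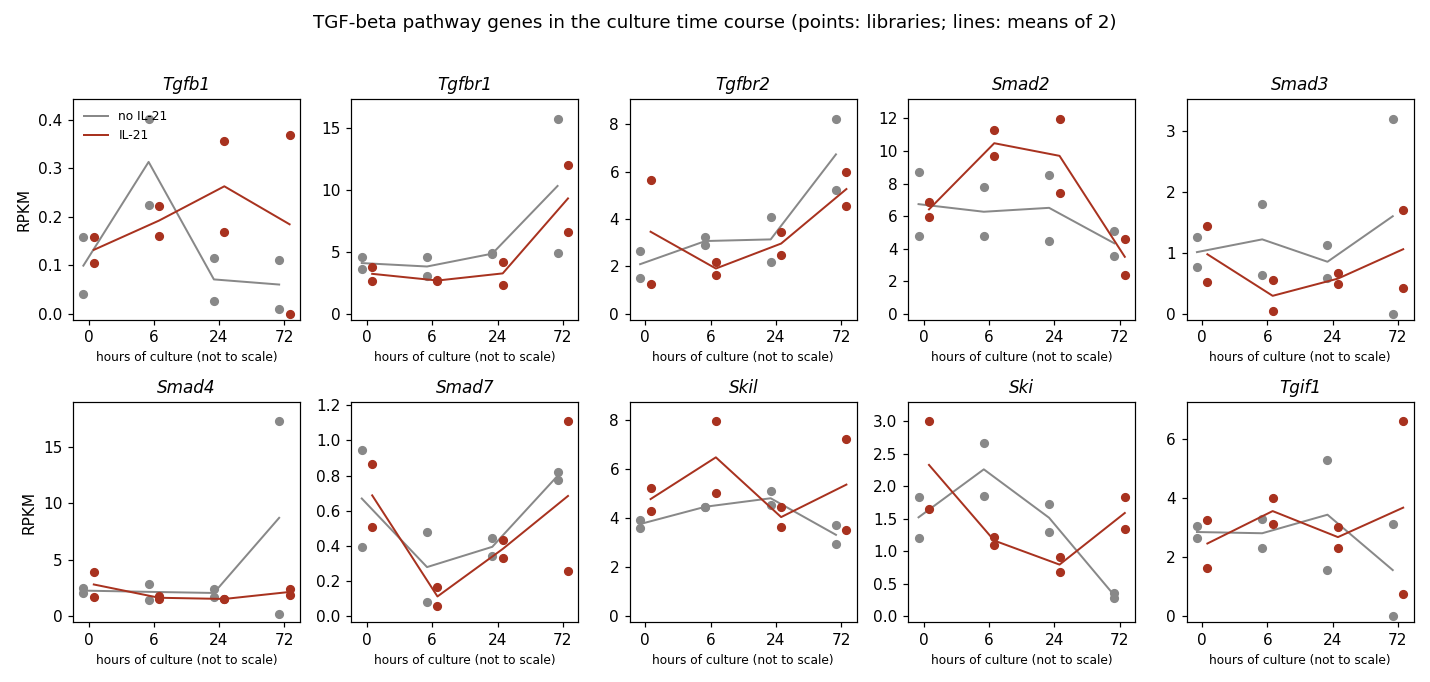
RPKM of the 10 genes at 0, 6, 24 and 72 h of culture in IL-15, without IL-21 (grey) or with IL-21 (red), a panel per gene with its own linear axis; points are libraries, lines join the means of 2, and the time axis is not to scale. Ski stands at 0.2769 and 0.367 RPKM at 72 h without IL-21 and at 1.828 and 1.348 with it, while the replicates of Smad4, Smad3 and Tgif1 lie far apart at 72 h.

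Between times without IL-21, 0 of the 10 members were called, with percent called among all genes at 0 for 6 h against 0 h, 0 for 24 h against 6 h and 7.68 for 72 h against 24 h. With edgeR 269 and 494 genes were at an unadjusted p under 0.05 in the first 2 comparisons. Ski had a log2 fold change of -1.95 at 72 h against 24 h with an adjusted p of 0.0651 (edgeR). Among the listed pathway genes in the filterByExpr set Smad1, a receptor-regulated SMAD of the BMP arm, was called for IL-21 at 72 h, at 0.895 and 1.54 RPKM with IL-21 and at 0.0224 and 0.0153 without (5.98 ± 1.41, adjusted p 0.0323, edgeR). At 72 h against 24 h without IL-21, Tab2 was higher in the RPKM-filtered set (10.1 and 6.39 to 13.1 and 33.2 RPKM; 14.8% of all genes there were called), and Itgav, an integrin subunit that activates latent TGF-beta (1.1 and 2.79 to 8.2 and 8.83 RPKM), and the phosphatase Ppm1a in the filterByExpr set, where Smad1 was lower. These comparisons share the 72 h libraries without IL-21, whose replicates lie far apart.

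The single-cell data were UMI counts of cells pooled from virgin and gd8.5 uteri. Both files hold the same 15175 cell barcodes with different genes, and the matrix as joined carries no label that assigns a cell to virgin or gd8.5 mice, so it was treated as 1 sample with no test. With over 200 and under 2500 genes per cell and under 10% mitochondrial UMIs 8907 cells were kept, while the same limits read as UMIs per cell, as the study's methods word them, leave 4338. With no upper limit 13076 were kept. The largest clusters were then led by Tff1 and Clic3 (1853 cells, median 7430 UMIs) and by Gzmf (1699 cells, median 10530 UMIs). The upper limit thus left out cells rich in UMIs, and the classes below hold fewer of them. The 10 members and all list genes were left out of the clustering. Clusters with markers of macrophages, B cells, stromal and erythroid cells were present although the gate should remove them. Values are CPM of the UMIs summed over a class, with an exact Poisson interval (95%) that covers counting error only.

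Smad2 was even between 3 trNK-like clusters and the unnamed cluster 5, and Smad3 was not. Cluster 0 (1364 cells, led by Cox6a2, Xcl1 and Crtam), cluster 7 (513 cells, led by cell cycle genes), cluster 1 (1170 cells, led by Tnfsf4, Gzmc and Gzmf) and the unnamed cluster 5 (771 cells, led by Ctsg, Mt2 and Tdrd9, which met the marker rule for Eomes and Itga1 only) had Smad2 at 35.0, 35.1, 33.5 and 34.7 CPM. Their intervals overlap, the widest of them being 27.8 to 43.8. Smad3 in the same clusters was at 47.7 (41.2 to 55.0), 19.6 (14.2 to 26.3), 10.97 (8.35 to 14.2) and 1.89 (0.816 to 3.72) CPM. Among these 4 no interval overlapped another, though those of clusters 7 and 1 met within rounding. Median depth differed between these clusters, at 2572, 4691, 4912 and 5707 UMIs per cell, and the 8 UMIs of Smad3 in cluster 5 cannot be told from free RNA. The other trNK-like cluster, cluster 14, held only 89 cells, with Smad2 at 22.9 (7.42 to 53.3) and Smad3 at 32.0 (12.9 to 65.9) CPM, from 5 and 7 UMIs. How these clusters divide between virgin and gd8.5 mice was not analysed here.

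Several other members were higher in cluster 0 than in clusters 7, 1 and 5. Ski was at 79.2 CPM in cluster 0, 26.7 in cluster 7, 22.1 in cluster 1 and 8.51 in cluster 5. Smad7 was at 86.7, 32.9, 28.5 and 16.5 CPM, Skil at 141.5, 60.5, 63.4 and 39.7, and Tgfbr1 at 33.99, 20.0, 21.6 and 6.38. In the small cluster 14 Ski was at 123 (81.3 to 179.5), Smad7 at 100.5 (63.0 to 152) and Skil at 151 (104 to 212) CPM, each interval overlapping that of cluster 0. The type II receptor was not highest in cluster 0: Tgfbr2 was at 142, 80.0, 159 and 123 CPM, with overlapping intervals in clusters 0 and 1. Tgfb1 was at 61.2, 48.0, 46.9 and 26.9 CPM, so transcripts of the ligand were counted in every one of them.

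**Figure D5:**
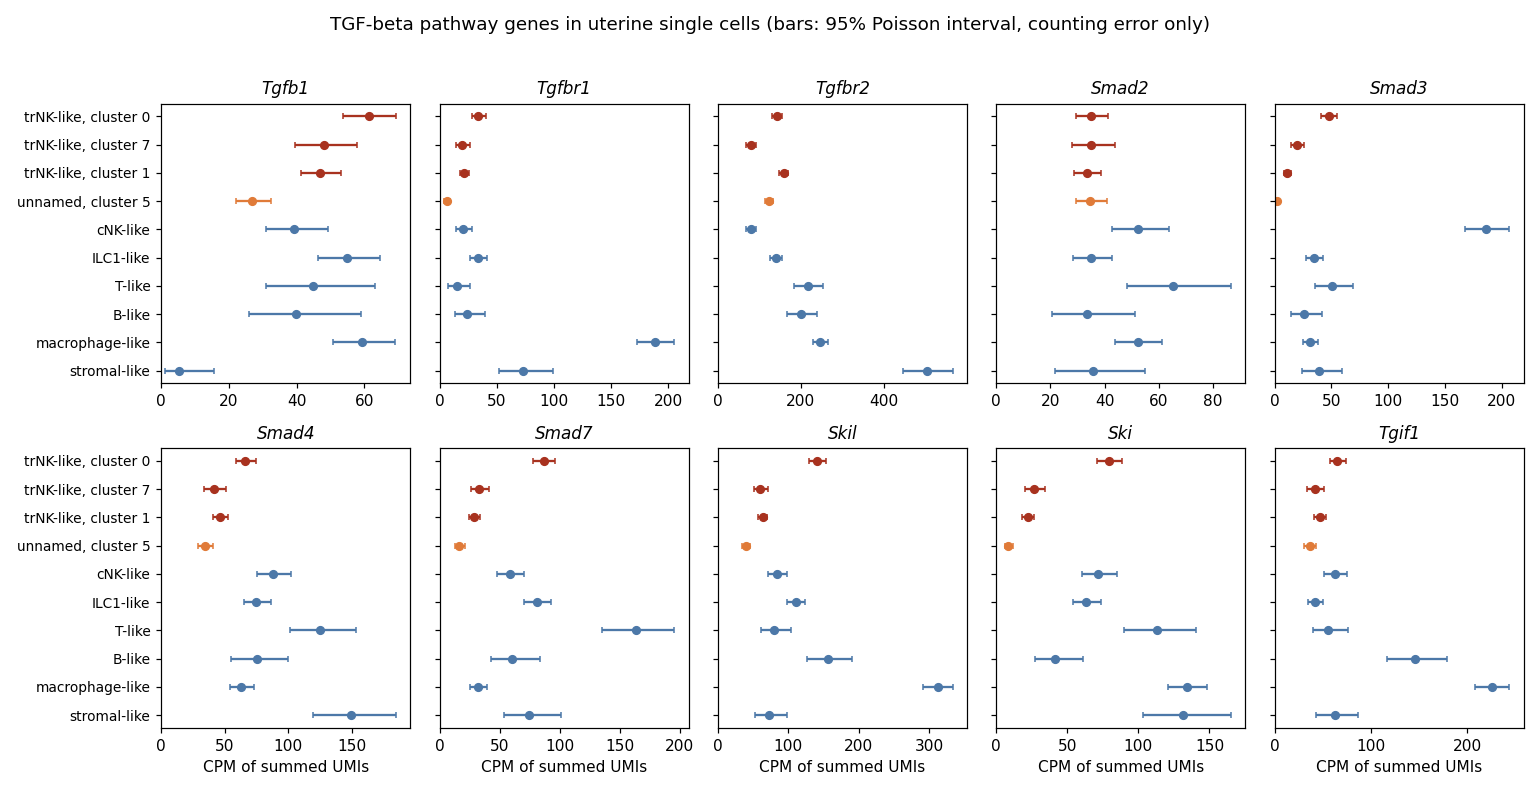
CPM of summed UMIs for the 10 genes in 3 trNK-like clusters (red), the unnamed cluster 5 (orange) and 6 other classes (blue), a panel per gene with its own axis from 0; bars are exact Poisson intervals that cover counting error only, and the small trNK-like cluster 14, the neutrophil or monocyte-like and erythroid-like cells and the other unnamed clusters are not drawn. Smad2 lies between 33.5 and 35.1 CPM in the 4 upper clusters while Smad3 goes from 47.7 to 1.89, and cNK-like cells have Smad3 at 186.

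Other cells of the uterus differed from the trNK-like class in single genes. In cNK-like cells (1016 cells, conventional NK cells, by Itga2, S1pr5 and Zeb2) Smad3 was at 186 (167 to 207) CPM against 25.4 (22.6 to 28.4) in all 3136 trNK-like cells (12.1, 9.84 to 14.8, in the 1702 so named at a Leiden resolution of 0.4), and Tgfbr2 was at 79.2 (67.1 to 92.9) against 138 (131 to 145). Intervals were apart between these classes for 5 of the 10 members: Tgfbr2, lower in cNK-like cells, and Smad2, Smad3, Smad4 and Ski, higher. The share of all genes with intervals apart was not computed, so this count is no result about the members as a set. ILC1-like cells (1040 cells) had Smad3 at 34.6 CPM (57.8 with the limits read as UMIs per cell) and Smad7 at 80.9. T-like cells (342 cells) had the highest Smad7 of the named classes, 163.5 CPM.

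Macrophage-like cells (886 cells, with C1qa, C1qb, C1qc and Adgre1) had Tgfbr1 at 188.5 (173 to 205) CPM, Skil at 312 (292 to 334) and Tgif1 at 225 (208 to 244), against 25.6, 90.8 and 53.1 in trNK-like cells. With the limits read as UMIs per cell, Tgfbr1 and Skil in macrophage-like cells were lower, at 107 (88.8 to 128) and 197 (172 to 225) CPM, and in trNK-like cells at 26.8 and 103. Stromal-like cells (210 cells) had Tgfbr2 at 503 (446 to 566) CPM and Tgfb1 at 5.34 (1.1 to 15.6), from 3 UMIs (11.6 with no upper limit on genes per cell). The ligand was thus counted in the lymphoid and macrophage-like classes, at 39.3 to 59.4 CPM, more than in stromal-like cells, whose type II receptor level was the highest. Shares of cells with a UMI are not compared, since depth differed between classes from a median of 1724 UMIs in cNK-like to 3665 in trNK-like cells.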

How the data were processed

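The authors aligned bulk RNA-seq reads to mm10 with HISAT2 2.1.0. The labels name featureCounts for counting and the methods RSEM. Strand setting was not given in the sources used here. The deposited bulk values are raw counts, whole reads per gene without normalization, beside exon positions and lengths. By the labels, the time course used another amplification kit than the other libraries. For single cells, the deposited values are raw UMI counts, made by the authors with the BD Rhapsody pipeline on GRCm39.

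The members and all gene lists were chosen with earlier results of these data known. Results of some list and marker genes are not reported here. RPKM were computed from counts and exon lengths. After TMM scaling, counts went into edgeR 4.0.16 (quasi-likelihood test; each experiment was fitted once with all its groups and no covariates) under R 4.3.3, with genes above 10 RPKM in both libraries of any group, and again with filterByExpr. SE were derived from the F statistic. Calls needed an adjusted p below 0.05 and a fold above 2. Common biological coefficients of variation in the filterByExpr sets were 0.544, 0.589, 0.792 and 0.909 (gestation, subsets, culture, time course).

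Single cells with over 200 and under 2500 genes and under 10% mitochondrial UMIs were normalized, and 2000 variable genes, 20 components and Leiden clustering (resolution 0.8, scanpy 1.11.5) were used. Clusters were named with 3 or more markers, at 3-fold over all other cells, or at 2-fold over B-like or other NK-like cells for NK-like types; these thresholds were set with the data in view, and clusters led by genes of another cell type or of low UMI count stayed unnamed. No doublet caller was run. The genes named are the 10 members, list genes that were called and markers. No member passed the RPKM filter in all 4 experiments, so genes of like pattern were not sought. Alternatives were DESeq2 1.42.0, limma-voom 3.58.1, DESeq2 size factors, no filter, a replicate block, only the groups compared and leaving out each library, and for single cells other limits per cell and Leiden resolution 0.4. The statistics were tested on simulated data first. With the filterByExpr genes, 54% of 200 planted 4-fold changes were called for gd6.5 against virgin and 45% for trNK-T against trNK-V. The share was 26% for Stattic against IL-21 and 12.5% for IL-21 at 72 h. A gene without a call may therefore still have changed. ATAC-seq libraries were not used here.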

Additional observations from a re-analysis of the deposited data

Results flagged for a closer look

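The values of Ski lay on opposite sides with IL-21 in the 2 cultures of 72 h. In the culture that included Stattic its log2 fold change was -1.52, with both IL-21 libraries (2.065 and 1.907 RPKM) below both without IL-21 (5.835 and 7.785). At 72 h of the time course it was 2.16, with both IL-21 libraries (1.828 and 1.348 RPKM) above both without IL-21 (0.2769 and 0.367). Neither change was called (adjusted p 0.921 and 0.0583, edgeR), and the difference between the experiments was not tested. The labels give another amplification kit for the time course.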

How the results depend on the processing

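Fold changes of the called members kept their direction under every alternative tried, while the calls did not. The labels give the same replicate numbers in all groups, but same-numbered libraries did not deviate together throughout: correlations ran from -0.213 to 0.032 in the gestation experiment, from 0.027 to 0.255 in the subsets, from -0.259 to 0.378 in the 72 h culture (0.378 between the arms without Stattic) and from -0.167 to 0.185 in the time course, so the numbers were not taken as pairs. With the replicate block 0 members were called for Stattic against IL-21 (Tgif1 at an adjusted p of 0.0534) and 1 against no IL-21 (Tgif1, with Tgfbr1 at 0.0879), and in the filterByExpr set 0 for trNK-T against trNK-V (Smad3 at 0.0559) and 0 for Stattic against no IL-21 (Tgif1 at 0.129, all edgeR); the block changed no other count. With filterByExpr the counts were 0 for Stattic against IL-21 and 1 against no IL-21. Without a filter 1 member (Skil) was called for gd8.5 against virgin and 2 (Smad3, Smad7) for trNK-T against trNK-V. DESeq2 called 1 (Skil) for gd8.5 against virgin and 2 (Tgif1, Tgfbr1) for Stattic against IL-21. Leaving out a library gave 0 to 1 calls for gd8.5 against virgin (1, Skil, without virgin replicate 2), 0 to 1 for trNK-T against trNK-V, 0 to 1 for Stattic against IL-21 and 0 to 1 against no IL-21. In the filterByExpr set it gave 0 to 1 for trNK-T against trNK-V, 0 to 0 for Stattic against no IL-21, 0 to 3 for IL-21 at 72 h, 0 to 4 for 72 h against 24 h and 0 to 4 for the IL-21 effect at 72 h minus 6 h, where the highest counts come from leaving out replicate 1 of the 72 h cells without IL-21, after which Smad3 and Tgif1 are set against a library with 0 counts. The filterByExpr fits with the block or without a library were added after the data were seen. In the time course 0 members passed the RPKM filter, so alternatives on that set gave no value. In single cells the members with intervals apart between cNK-like and trNK-like cells, counted without a share of all genes, numbered 5. They were 3 with the limits set on UMIs per cell, 7 with no upper limit and 8 at a Leiden resolution of 0.4. Tgfbr2, Smad3 and Smad4 were among them in all 4 settings. At that resolution no cluster was named macrophage-like, and 1702 rather than 3136 cells were named trNK-like and 2585 rather than 1040 ILC1-like. The ILC1-like cluster was then led by Cox6a2, as cluster 0 is. Smad7 and Ski in trNK-like cells were then at 29.4 and 22.3 CPM, against 50.3 and 44.1. Fewer than 50 reads lay behind 21 of 160 member values in the time course, and behind 0, 2 and 2 of 60 in the gestation, subset and 72 h culture experiments; the effect of depth on the comparisons was not tested.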
